A study of Drosophila melanogaster with 6 samples.

Results

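The genes described here encode the proteins of the cytosolic ribosome of Drosophila melanogaster. They were taken from a table of read counts by symbol: names that begin with RpL, RpS or RpLP followed by a number, and sta, without the paralogs RpS5a, RpS5b, RpL22, RpL22-like, RpS14a, RpS14b, RpL10Aa, RpL10Ab, RpL24-like and RpLP0-like. This gave 81 of the 16727 genes in the table, 34 of the small subunit and 47 of the large subunit. They are meant to be single-copy genes, and 69 of them have no same-named copy among the members. The other 12 form 6 pairs whose symbols differ only in a final a or b, so the group is called the ribosomal protein genes below. Of the 81 genes, 77 passed the filter on low counts and were tested.

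Messenger RNA was measured in eye-antennal imaginal discs, the larval epithelia that form the eye, antenna and head capsule of the adult. All larvae were of genotype y w; +/+; +/+, were kept at 25 °C and ate a medium made with the erg2 mutant yeast YPH erg2∆::TRP1. This yeast cannot make hormone precursors that Drosophila needs to pupate, so the larvae did not pupate. The 3 day 11 libraries come from discs taken 11 days after egg laying, when growth of the eye disc had ended, and the 3 day 5 libraries from discs taken 5 days after egg laying, when it was still growing. Each library pooled at least 30 discs. Age, time on the medium and the end of growth cannot be told apart in this design, and in pooled tissue fewer cells of a type and less RNA per cell cannot be told apart either.

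Ribosomal proteins join ribosomal RNA to form the small subunit, which reads the messenger RNA, and the large subunit, which makes the peptide bond. Nearly all of them are needed in every ribosome, and their messages are among the most abundant in growing cells. In Drosophila, loss of 1 copy of many of these genes gives the Minute phenotype of slow growth and short bristles, and heterozygous cells in a disc are outcompeted by wild-type neighbours. The nutrient-sensing kinase Tor and the transcription factor Myc are known to raise ribosome production.

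Totals ran between 7670180 and 9049513 counts in the day 11 libraries and between 6542782 and 7950251 in the day 5 libraries. Levels are given in CPM, counts relative to the library total, scaled by TMM, a method that sets the bulk of genes level between libraries. A tag library reads 1 end of each transcript, so these levels are not divided by length and are compared within a gene, not between genes. Of 14 markers of the eye-antennal disc 13 were tested, and hbn had no count in any library. The disc markers summed to 2243 to 2973 CPM at day 11 and 2809 to 2938 CPM at day 5, sums carried by hth with means of 1672 and 1788 CPM. Of the 13 tested, 5 fell and 0 rose by the edgeR test used below. These were the retinal determination genes ey (log2 fold change -0.90), eya (-1.49), dac (-2.54) and Optix (-1.06), and ato (-2.99), which starts photoreceptor formation. The part of this in the results below was not tested. Markers of other tissues also differed between libraries. The salivary gland list summed to 86.5 to 1052.5 CPM at day 11 and 4.30 to 15.5 CPM at day 5, and the haemocyte list to 39.5 to 138.4 and 29.9 to 45.7 CPM. The muscle list summed to 114.3 to 187.5 CPM at day 11 and 218.3 to 668.9 CPM at day 5, and the fat body list to 73.9 to 963.6 and 63.5 to 637.5 CPM. The brain and neuroblast list summed to 16.6 to 18.5 CPM at day 11 and 28.8 to 125.7 CPM at day 5, and the ring gland list to 4.51 to 46.6 and 19.3 to 355.7 CPM. In the brain and neuroblast list the cherub RNA (CR43283) had means of 3.67 CPM at day 11 and 54.0 CPM at day 5. It and nab were called lower (log2 fold change -3.90 and -2.36), while dpn (-0.59) and mira (0.83) were not called. The tracheal list summed to 426.9 to 506.6 CPM at day 11 and 357.4 to 399.4 CPM at day 5. Gasp carried these sums, with means of 412 and 301 CPM, while trh and btl had means from 0.47 to 1.06 CPM. In the fat body and salivary gland lists no marker was at 0 in all libraries, and the part of these tissues in the results below was not tested.

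The ribosomal protein genes took up a smaller part of each library at day 11. Their summed counts were 17.6%, 17.3% and 17.0% of all counts in the day 11 libraries, and 31.3%, 31.3% and 30.4% in the day 5 libraries. The day 11 libraries all lay below the day 5 libraries. The mean share was 17.3% ± 0.317 (SD, n = 3) in day 11 discs and 31.0% ± 0.512 (SD, n = 3) in day 5 discs (exact permutation test over libraries, two-sided, p = 0.1, the smallest that 3 against 3 libraries allow). A pair of short non-coding RNAs, CR40469 and CR34335, took up 26.3% to 40.8% of the day 11 libraries and 14.5% to 19.0% of the day 5 libraries. With their counts left out of the totals, the share of the ribosomal protein genes was 23.9%, 29.2% and 28.1% at day 11 and 36.6%, 38.7% and 36.4% at day 5. The groups still did not overlap. Small subunit genes held 6.60% ± 0.211 of the library in day 11 discs and 12.0% ± 0.259 in day 5 discs, and large subunit genes 10.7% ± 0.161 and 19.0% ± 0.318 (SDs over 3 libraries a day).

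Gene by gene, the ribosomal protein messages fell in 59 of 77 tested genes and rose in 0 (edgeR's quasi-likelihood fit, with p adjusted by Benjamini-Hochberg over all 8010 genes tested and a threshold of 0.05). Among all tested genes 17.9% were called lower and 19.1% higher. Other short genes were called lower more often, in 143 of 449 up to 600 nt and 144 of 398 between 600 and 800 nt. No member was called higher by the DESeq2 Wald test or by limma-voom. The median log2 fold change of the tested members, day 11 over day 5, was -0.56, against -0.0065 for all tested genes, and 74 of 77 values were below 0. The called falls ran from -0.34 to -1.47 with SE of 0.10 to 0.25. Only 3 of them, RpL41, RpL39 and RpS27A, were at least 2-fold, while 43 lay between -0.5 and -1 and 13 were smaller than 0.5 on the log2 scale. In 62 members every day 11 library lay below every day 5 library, an order seen in 25.2% of all tested genes, and in 0 members did every day 11 library lie above, against 25.6%. The part of transcript length in these counts is given below.

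Both subunits took part. Of the small subunit genes 28 of 31 tested fell, with a median log2 fold change of -0.61, and of the large subunit genes 31 of 46, with a median of -0.50. Among all tested genes 17.9% were called lower. With the trend of fold change with transcript length removed, as described below, 14 of the 77 tested members, from both subunits, were called lower. In that fit 14.4% of all tested genes were lower. The ratio of small to large subunit counts was 0.636, 0.601 and 0.614 in the day 11 libraries and 0.643, 0.620 and 0.628 in the day 5 libraries. These overlapped (exact permutation test on the log2 ratio, two-sided, p = 0.4). Without RpL41 the ratio was 0.681, 0.650 and 0.664 at day 11, all below the 0.733, 0.731 and 0.726 at day 5 (exact permutation p = 0.1, the smallest possible).

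**Figure D1:**
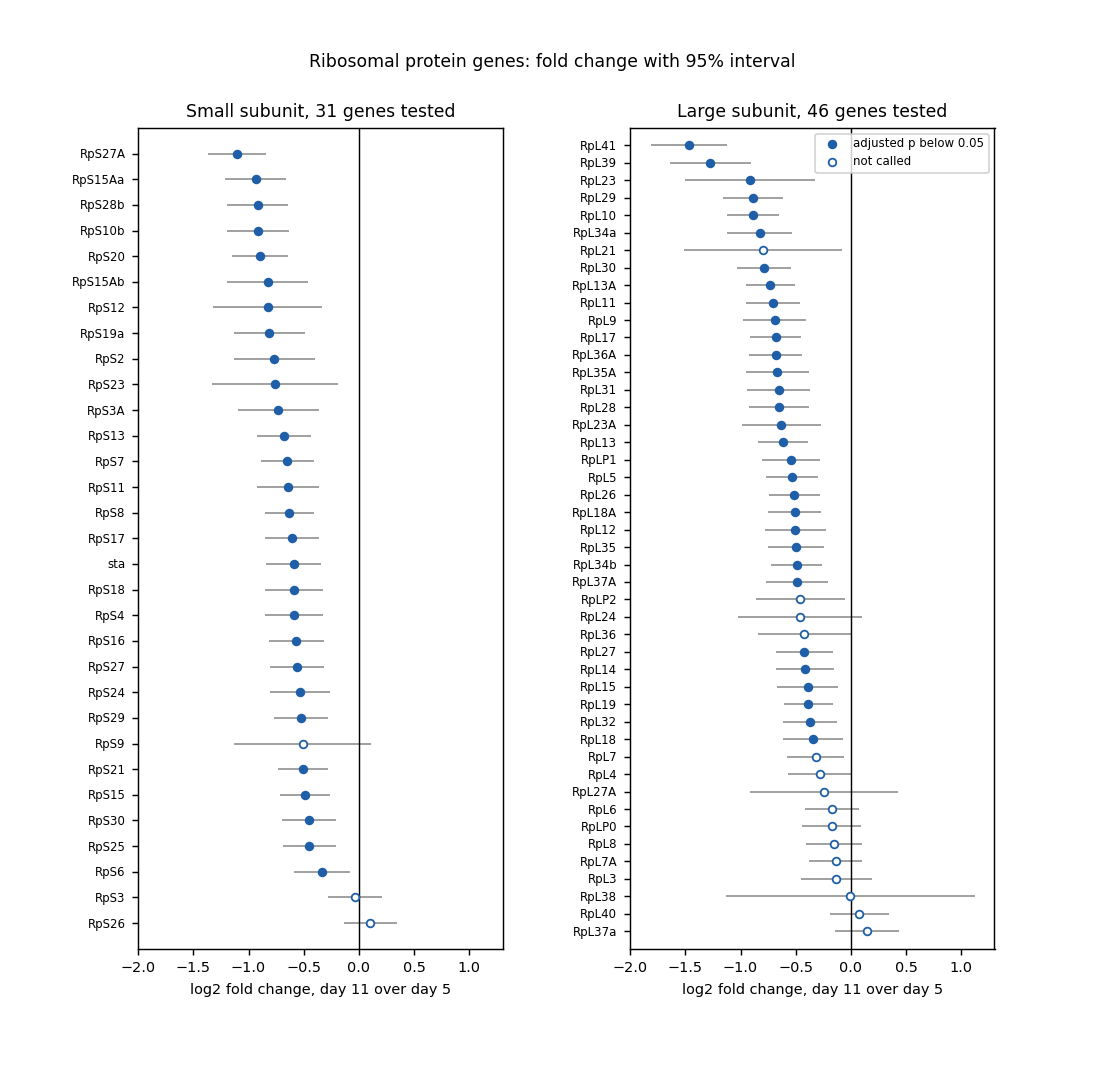
Log2 fold change, day 11 over day 5, of the 31 small subunit (left) and 46 large subunit (right) ribosomal protein genes tested, ordered by value, with 95% intervals as bars. Filled points mark the 59 genes called lower and open points the 18 not called. RpL41, RpL39 and RpS27A lie lowest, and RpL40, RpS26 and RpL37a lie above 0 with intervals that include 0.

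The largest fall was that of RpL41, on chromosome 2R from 24903416 to 24903935 in dm6 coordinates, which encodes a basic peptide of 25 residues, the shortest ribosomal protein. It stood at 6897, 9517 and 9301 CPM in the day 11 libraries, against 20263, 27886 and 22923 CPM in the day 5 libraries. The highest day 11 library was thus below the lowest day 5 library. Its log2 fold change was -1.47 (SE 0.16, edgeR adjusted p = 4.51e-05), which leaves 36.2% of the day 5 level. Of the ribosomal protein counts RpL41 made up 4.45% ± 0.355 in day 11 discs and 8.36% ± 0.912 in day 5 discs (SDs over 3 libraries a day). The gene lies within NaCP60E, which is transcribed from the other strand, and no source used here says whether the counting used strand.

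RpL39, a protein of 51 residues that lines the tunnel through which the nascent chain leaves the ribosome, had 1080, 1724 and 1552 CPM at day 11 and 3220, 3976 and 3334 CPM at day 5. All day 11 values lay below all day 5 values (log2 fold change -1.27, SE 0.17, adjusted p = 0.000206). Its annotated 3′ end overlaps that of RpL12, a large subunit protein gene on the other strand, by 8 nt. RpL12 itself fell less, by 0.50 on the log2 scale (SE 0.13, adjusted p = 0.00837). Other proteins at the tunnel are RpL17 (log2 fold change -0.68, SE 0.11, adjusted p = 0.000478) and RpL23A (-0.63, SE 0.16, adjusted p = 0.0101), both lower at day 11. RpL23A shares its locus with the non-coding host gene Uhg7 on the same strand and with CG7974 on the other, so its counts are uncertain. With the trend of fold change with transcript length removed, as described below, RpL12 and RpL23A were not called (adjusted p = 0.92 and 0.0749).

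The ubiquitin fusion genes parted. RpS27A and RpL40 each encode ubiquitin joined to a ribosomal protein, of the small subunit and of the large subunit, and are sources of new ubiquitin in the cell. RpS27A, on chromosome 2L from 10408352 to 10410456, had 1265, 1546 and 1536 CPM at day 11 and 2991, 3356 and 3011 CPM at day 5. It fell by 1.11 on the log2 scale (SE 0.12, 95% interval -1.37 to -0.84, adjusted p = 4.54e-05). The protein-coding gene Ip259 overlaps RpS27A by 1259 nt on the same strand, without covering its annotated 3′ end. How reads in that overlap were counted is not known. RpL40, on chromosome 2L from 4227699 to 4228561, had 3279, 2695 and 2904 CPM at day 11 and 2543, 2780 and 3097 CPM at day 5. Its groups overlapped, and it was not called (log2 fold change 0.08, 95% interval -0.19 to 0.34, adjusted p = 0.655). The ratio of RpS27A to RpL40 counts was 0.386, 0.574 and 0.529 at day 11, against 1.18, 1.21 and 0.972 at day 5, with no overlap (exact permutation test on the log2 ratio, two-sided, p = 0.1, the smallest possible). As no source used here says how reads with several matches were counted, reads from the shared ubiquitin part could count for either gene.

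Beside RpL40, the highest fold changes were those of RpL37a and RpS26, neither of them called. RpL37a had 3490, 2982 and 3191 CPM at day 11 and 2581, 2707 and 3468 CPM at day 5 (log2 fold change 0.14, 95% interval -0.15 to 0.43). RpS26, a protein near the channel where messenger RNA leaves the small subunit, had 4435, 4871 and 4634 CPM at day 11 and 4186, 4104 and 4712 CPM at day 5 (0.10, interval -0.14 to 0.34). Their day 11 and day 5 libraries overlapped. RpS3, a small subunit protein at the channel where messenger RNA enters, which also has a known role in DNA repair, had 3866, 3812 and 4375 CPM at day 11 and 3815, 4291 and 4277 CPM at day 5. Its value was -0.04 (interval -0.28 to 0.21). For these genes the interval leaves out a fall of the size of the members' median.

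**Figure D2:**
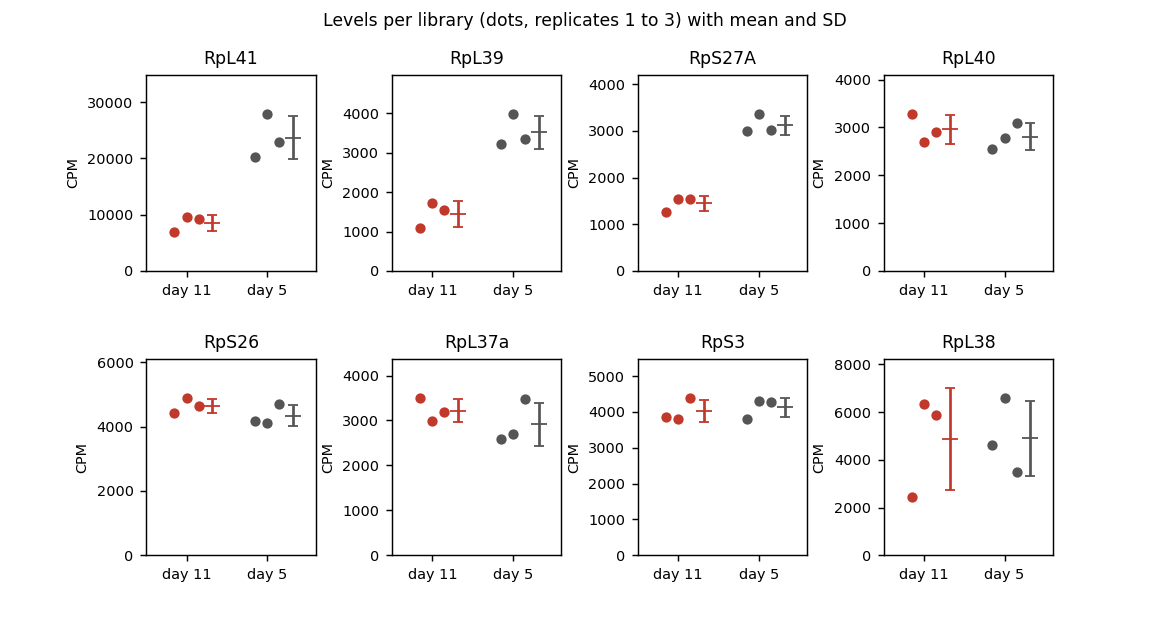
Level in CPM of 8 ribosomal protein genes in the 3 day 11 libraries (red, left in each panel) and the 3 day 5 libraries (grey), with mean and SD beside the dots. The groups lie apart for RpL41, RpL39 and RpS27A and overlap for RpL40, RpS26, RpL37a, RpS3 and RpL38, the last with a spread of 2428 to 6319 CPM within day 11.

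The stalk of the large subunit, which recruits elongation factors, is built on RpLP0 with RpLP1 and RpLP2. Of these RpLP1 fell, with 1807, 1592 and 1511 CPM at day 11 and 2263, 2222 and 2657 CPM at day 5 (log2 fold change -0.54, SE 0.12, adjusted p = 0.00453). With the trend of fold change with transcript length removed, as described below, RpLP1 was at -0.08 and not called (adjusted p = 0.654). RpLP0 was at 1706, 1574 and 1312 CPM at day 11 and 1739, 1622 and 1821 CPM at day 5, which overlap (-0.17, 95% interval -0.44 to 0.09). RpLP2 was not called either (-0.46, interval -0.86 to -0.06, adjusted p = 0.0705), though DESeq2 called it, and so did 4 other settings, among them the fit without day 11 replicate 2.

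RpL5 and RpL11, which carry the 5S ribosomal RNA into the large subunit, both fell. RpL5 had 2849, 2909 and 3003 CPM at day 11 and 4067, 4547 and 4049 CPM at day 5 (log2 fold change -0.53, SE 0.11, adjusted p = 0.00254), and RpL11 1543, 1736 and 1749 CPM and 2734, 2920 and 2541 CPM (-0.70, SE 0.11, adjusted p = 0.000581). In both the groups lay apart. RpL10, which joins the large subunit late in its assembly, had 1919, 2044 and 2020 CPM at day 11 and 3448, 3927 and 3689 CPM at day 5. It fell by 0.89 (SE 0.11, adjusted p = 9.79e-05).

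Among small subunit genes with further known roles, the smallest called fall was that of RpS6, the substrate of S6 kinase. It had 2247, 2002 and 1996 CPM at day 11 and 2376, 2594 and 2912 CPM at day 5 (log2 fold change -0.34, SE 0.12, adjusted p = 0.0413). The groups lay apart by a narrow margin, and the call was lost in 10 of 18 other settings, with adjusted p from 0.00979 to 0.726. The fits without day 11 replicate 2, day 11 replicate 3, day 5 replicate 2 or day 5 replicate 3 were among these. A pseudogene, CR33222, overlaps RpS6 on the same strand, so its counts are uncertain. RpS12, which in Drosophila is needed for the loss of Minute cells in competition, had 1461, 2506 and 2418 CPM at day 11 and 3923, 4359 and 3044 CPM at day 5. It fell by 0.83 (SE 0.22, adjusted p = 0.0165), a call lost without day 5 replicate 1, where the value was -0.81. The call of RpS12 was also lost with the length trend removed (-0.32, adjusted p = 0.285). RpS21, sta (the gene of the laminin receptor homologue RpSA) and RpS2, known as sop, also fell. Their log2 fold changes were -0.51 (SE 0.10) for RpS21, -0.59 (SE 0.11) for sta and -0.77 (SE 0.17) for RpS2, with adjusted p from 0.00179 to 0.00416. With the length trend removed sta was still called (-0.34, adjusted p = 0.0385). RpS2 (-0.45, adjusted p = 0.0592) and RpS21 (0.05, adjusted p = 0.754) were not called in that fit.

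In 4 of the 6 same-named pairs 1 copy was at or near 0. RpS28a and RpL37b had no count in any library, RpS10a had 3, 0 and 3 counts at day 11 and 0 in each day 5 library, and RpS19b had 2, 0 and 1 counts at day 11 and 3, 5 and 3 at day 5. For the genes with no count, the upper limit is 3 counts a library, or 0.332 to 0.459 CPM before TMM scaling, which covers counting error only. Their partners carried the signal. RpS28b fell by 0.92 on the log2 scale (SE 0.13), RpS10b by 0.91 (SE 0.13) and RpS19a by 0.81 (SE 0.15), while RpL37a was not called, as given above. RpS19a lost its call with the length trend removed (-0.35, adjusted p = 0.0895). RpL37a was tied to its locus on chromosome X as the remaining bearer of that older symbol, since the other, RpL37A, has a row of its own.

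In the other 2 pairs both copies were measured and both fell. RpS15Aa had 1098, 1443 and 1249 CPM at day 11 and 2338, 2579 and 2335 CPM at day 5 (log2 fold change -0.94, SE 0.12, adjusted p = 0.000188). RpS15Ab, a gene with a single exon, had 43.2, 62.3 and 50.9 CPM at day 11 and 86.8, 107.1 and 83.4 CPM at day 5 (-0.83, SE 0.17, adjusted p = 0.00249). Its share of the pair's counts was 3.95% ± 0.176 (SD, n = 3) in day 11 discs and 3.67% ± 0.281 (SD, n = 3) in day 5 discs (exact permutation p = 0.3). RpL34a had 223.9, 310.1 and 282.2 CPM at day 11 and 474.7, 479.3 and 491.7 CPM at day 5, and RpL34b 1062, 1168 and 1167 CPM and 1594, 1546 and 1640 CPM. RpL34a fell by 0.83 (SE 0.13) and RpL34b by 0.49 (SE 0.11). With the length trend removed, of these 2 pairs only RpS15Aa was called. RpS15Ab was at -0.39 (adjusted p = 0.0927), RpL34a at -0.32 (adjusted p = 0.0872) and RpL34b at -0.03 (adjusted p = 0.841). RpL34a made up 17.4%, 21.0% and 19.5% of the pair's counts at day 11 and 23.0%, 23.7% and 23.1% at day 5, without overlap (exact permutation p = 0.1, the smallest possible). No source used here says how reads were divided between near-identical copies, so the split within each pair is uncertain.

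The members did not all move by the same amount. When the libraries were scaled by the ribosomal protein genes alone, so that each member is set against the group, 9 were lower and 9 higher than the group at an edgeR adjusted p below 0.05. With this scaling 4.26% of all tested genes were called lower and 47.7% higher. The adjustment ran over all 8010 tested genes, so it does not set the rate of false calls among the 77 members alone. Below the group were RpL41 (relative log2 fold change -0.89), RpL39 (-0.70), RpS27A (-0.53), RpS15Aa, RpS28b, RpS10b, RpS20, RpL29 and RpL10. Above it were RpL37a (0.73), RpS26 (0.68), RpL40 (0.66), RpS3 (0.54), RpL3, RpL7A, RpL8, RpLP0 and RpL6. RpL3 and RpL8 are large subunit proteins at or near the peptidyl transferase centre. In the TMM-scaled fit with the length trend removed, described below, neither was called. RpL3 was at -0.03 (edgeR adjusted p = 0.92) and RpL8 at 0.10 (adjusted p = 0.54) there. Of the 9 above the group, 3 were called higher in that fit. The 9 below the group had a median transcript length of 592 nt, the 9 above 1046 nt and the 59 not called 678 nt. Leaving out 1 library gave 3 to 9 members below and 5 to 10 above. The counts below were 3 without day 11 replicate 3, 3 without day 5 replicate 1, 3 without day 5 replicate 2 and 4 without day 5 replicate 3, and 5 were above without day 5 replicate 1.

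Transcript length moved with the fold changes, in the ribosomal protein genes and in other genes. Members with annotated transcripts up to 600 nt had a median log2 fold change of -0.63 (16 genes), against -0.33 for the 449 other tested genes of that length. Between 600 and 800 nt the medians were -0.56 in 36 members and -0.49 in 398 other genes, and between 800 and 1100 nt -0.43 in 20 members and -0.26 in 745 other genes. Above 1100 and up to 1600 nt they were -0.28 in 5 members and -0.15 in 1357 other genes. Called lower were 15 of 16 members up to 600 nt and 143 of 449 other genes. Between 600 and 800 nt these were 30 of 36 and 144 of 398, and between 800 and 1100 nt 12 of 20 and 191 of 745. Above 1100 and up to 1600 nt they were 2 of 5 and 275 of 1357. Across the 77 tested members, which share the same libraries, Spearman's rho between length and fold change was 0.34, and 0.29 without RpL41 and RpL39. With the trend over all tested genes removed, 14 members were lower and 3 higher, so 45 of the 59 calls were lost, and the members' median was -0.11, against 0.0078 for all tested genes. In that fit 14.4% of all tested genes were lower and 18.5% higher. The 14 were RpL41, RpL39, RpS27A, RpS15Aa, RpS10b, RpS28b, RpL10, RpL29, RpL5, RpS20, RpL11, RpL13A, sta and RpL17, which include all 9 that were below the group, and the 3 higher were RpL40 (0.57, adjusted p = 0.0039), RpL37a (0.47, adjusted p = 0.0178) and RpS26 (0.37, adjusted p = 0.0219). RpL5, with the longest annotated transcript of the members at 1512 nt, was still lower (-0.43, adjusted p = 0.00952). Why length and fold change go together was not tested.

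**Figure D3:**
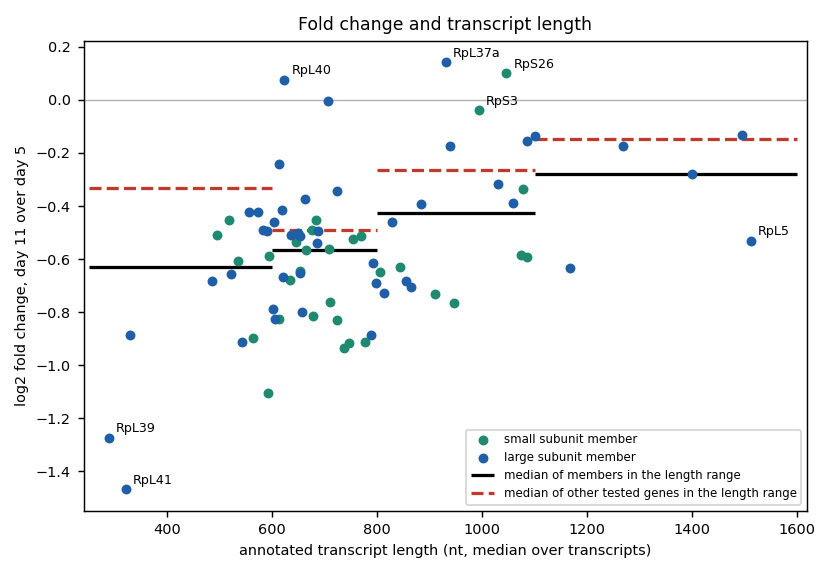
Log2 fold change, day 11 over day 5, of each tested ribosomal protein gene against its annotated transcript length in nt, with small subunit genes in green and large subunit genes in blue. Black lines give the median of the members and dashed red lines the median of the other tested genes in 4 length ranges. The members' medians run from -0.63 to -0.28 from the shortest to the longest range and lie below the other genes in each.

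The 14 members that varied most between libraries of the same day mostly did so in the same manner. They were picked after their values were seen, for an SD within days above 0.25 on the log2 scale, and are RpL21, RpL23, RpL23A, RpL24, RpL27A, RpL36, RpL38, RpL39, RpLP2, RpS2, RpS3A, RpS9, RpS12 and RpS23. Their SD was 0.26 to 0.63, and that of the 63 other tested members reached 0.25 with a median of 0.12, so no gap marks the threshold. Such an SD was found in 18.2% of the tested members and in 50.1% of all tested genes. RpL38, the most variable, had 2428, 6319 and 5893 CPM at day 11 and 4635, 6569 and 3481 CPM at day 5. RpL27A had 4226, 9119 and 8244 CPM at day 11 and 8444, 9699 and 7390 CPM at day 5. RpS9 had 2607, 5204 and 4603 CPM at day 11 and 6051, 6883 and 4757 CPM at day 5. In these genes replicate 1 is the low library of day 11 and replicate 3 the low library of day 5.

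Both of these libraries were the lowest of their day in 12 of the 14 genes, in 9 of the 63 other members, in 16.7% of all tested genes and in 21.0% of those with an SD above 0.25. The same held for 56 of 102 tested small nucleolar RNA genes and 8 of 11 tested small nuclear RNA genes. Of the 14 members 5 overlap a small nucleolar RNA gene on the same strand, as do 21 of the 63 others. The median transcript length was 681.5 nt in the 14 and 688 nt in the others. RpL38, RpL27A, RpL24, RpS9, RpL36, RpL21 and RpLP2 were not called, with intervals up to -1.13 to 1.12 for RpL38. A fall of the size of the members' median was thus not detectable for RpL38 at this spread. The intervals of the others, among them -0.91 to 0.43 for RpL27A and -1.51 to -0.08 for RpL21, also include that median. Without day 11 replicate 1 the log2 fold change of RpL38 was 0.32 and that of RpL27A 0.03, and RpL21 was called. RpL23, a large subunit protein, had 1876, 3709 and 3270 CPM at day 11 and 5849, 6271 and 4563 CPM at day 5 and fell by 0.91 on the log2 scale (SE 0.25, adjusted p = 0.0254). The calls of RpL23 and RpS23 were lost without day 5 replicate 1 and without day 5 replicate 2. That of RpL23 was also lost without day 11 replicate 3, and that of RpS23 without day 11 replicate 2. Both calls were lost with the length trend removed as well.

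**Figure D4:**
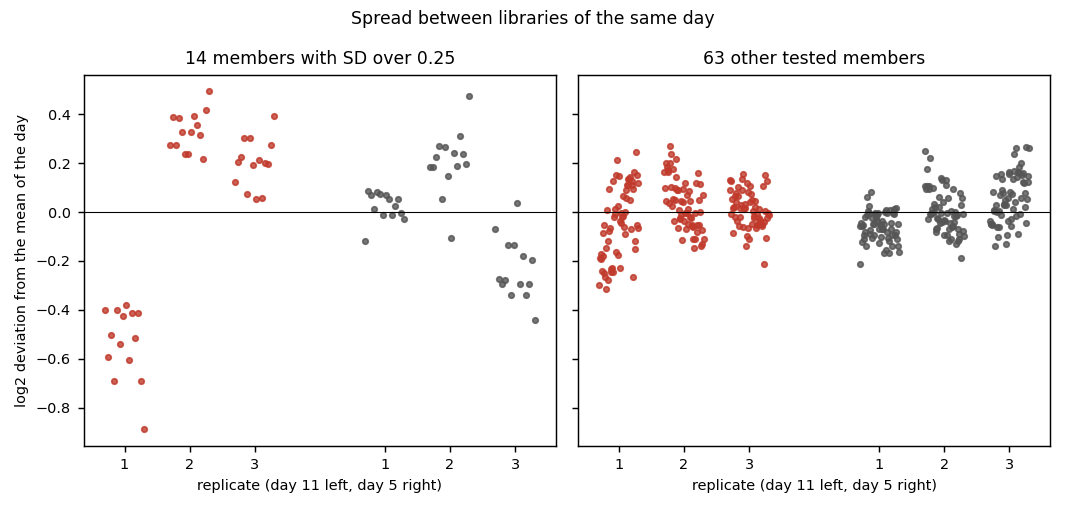
Deviation of each tested ribosomal protein gene from its mean of the day, on the log2 scale, in the 3 day 11 libraries (red) and the 3 day 5 libraries (grey). Each dot is 1 gene in 1 library, with the 14 genes of SD above 0.25 on the left and the 63 others on the right. The 14 have a median of -0.51 in day 11 replicate 1 and of -0.28 in day 5 replicate 3. In 12 of the 14 both of these libraries are the lowest of their day.

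The genes lie on all major chromosome arms, with 11 on X, 17 on 2L, 19 on 2R, 13 on 3L, 20 on 3R and RpS3A on chromosome 4. The median log2 fold change per arm ran from -0.62 on 2R to -0.49 on 3R, and RpS3A stood at -0.73. Small nucleolar RNAs, many of which guide the modification of ribosomal RNA, overlap 26 members on the same strand, 59 in all. Whether they lie in introns was not checked. Of these members 21 of 26 fell (median -0.61), and of the others 38 of 51 tested (median -0.51). A gene on the opposite strand covers the annotated 3′ end of 21 members, where tags are expected. Of the 20 tested among them 18 fell, with a median of -0.65, and of the other 57 tested 41 fell, with a median of -0.53.

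Ribosomal protein symbols outside the group moved both ways. Of 12 such rows 8 were tested, 3 lower and 1 higher. RpS5a, a small subunit protein, had 1426, 1612 and 1652 CPM at day 11 and 2616, 2793 and 2921 CPM at day 5, a log2 fold change of -0.83 (SE 0.11). Its paralog RpS5b had 54.0, 49.7 and 47.7 CPM at day 11 and 6.07 to 7.54 CPM in the day 5 libraries and rose by 2.91 (SE 0.16). RpL10Ab fell by 0.67 (SE 0.18). RpLP0-like, whose yeast homologue acts in large subunit assembly, fell by 1.91 (SE 0.21). With the length trend removed 2 were lower and 3 higher. In that fit RpL10Ab was not called (-0.30, adjusted p = 0.228), and RpL24-like (0.76, adjusted p = 0.00263) and RpS14b (0.80, adjusted p = 0.000277) were higher. The median of the 8 was -0.11, and 0.23 with the length trend removed. Of 71 tested mitochondrial ribosomal protein genes 35 fell and 2 rose, with a median of -0.66. With the length trend removed these were 15 and 7, with a median of -0.23. For both lists, the shares among all tested genes were 17.9% lower and 19.1% higher, and 14.4% and 18.5% with the length trend removed.

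Of 10 genes for partners of the ribosome in translation 6 fell and 1 rose, with a median log2 fold change of -0.35. Among all tested genes 17.9% fell and 19.1% rose. Rack1, a scaffold protein bound to the small subunit, fell by 0.61 (SE 0.11). Among elongation factor genes eEF1delta fell by 1.43 (SE 0.17), Ef1alpha48D by 0.50 (SE 0.10), Ef1gamma by 0.47 (SE 0.11), Ef1beta by 0.37 (SE 0.11) and EF2 by 0.32 (SE 0.11). The paralog Ef1alpha100E rose, with 469.8, 170.0 and 211.4 CPM at day 11 and 24.9, 16.9 and 41.7 CPM at day 5 (3.35, SE 0.58). With the length trend removed 5 were lower and 1 higher, and Ef1beta was at -0.02 (adjusted p = 0.924). The initiation factor gene eIF-4a (0.16, 95% interval -0.11 to 0.43), pAbp, which binds the poly(A) tail (0.27, 0.01 to 0.53), and Tctp (-0.30, -0.56 to -0.04) were not called.

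Of 12 genes known to act on ribosomal protein genes or their messages 6 rose and 2 fell, with a median of 0.54. Among all tested genes 19.1% rose and 17.9% fell. Thor, the 4E-BP repressor of translation initiation, had 279.1, 240.3 and 323.0 CPM at day 11 and 15.3, 13.6 and 14.7 CPM at day 5 (log2 fold change 4.27, SE 0.16, adjusted p = 2.86e-08). S6k rose by 1.02 (SE 0.12), larp, whose mammalian homologue binds ribosomal protein messages, by 0.98 (SE 0.12), and dm, the Myc gene, by 0.57 (SE 0.11). Xrp1 and CG6272 (Irbp18), transcription factors that act in cells short of ribosomal proteins, rose by 0.67 (SE 0.14) and 1.13 (SE 0.21). Dref and M1BP, promoter-binding factors, fell by 0.66 (SE 0.15) and 0.50 (SE 0.17). Tor, Trf2, raptor and Max were not called, with log2 fold changes of -0.81 (95% interval -1.48 to -0.14), 0.31 (0.05 to 0.57), 0.52 (-0.06 to 1.10) and 0.08 (-0.25 to 0.41). With the length trend removed 2 were again lower and 6 higher, but Tor was called lower (-1.07, adjusted p = 0.0202), M1BP was not called (-0.40, adjusted p = 0.10), and dm was at 0.33 (adjusted p = 0.043).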

How the data were processed

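RNA selected for poly(A) was made into 3′ tag libraries with the QuantSeq FWD kit, per the labels' protocols. The submitters' processing notes name FastQC, cutadapt, STAR 2.6.1d and the dm6 genome. Which annotation and counting program were used, whether strand was used and how reads with more than 1 match were treated are not stated in these sources. The authors deposited 1 table of raw counts for 16727 genes, of which 12816 had a count. No sequences are printed.

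Genes were kept with edgeR's filterByExpr, libraries were scaled by TMM, and day 11 was compared with day 5 by edgeR 4.0.16 (robust quasi-likelihood test, Benjamini-Hochberg over 8010 genes, threshold 0.05, R 4.3.3). Intervals are at 95%. Single quantities were compared by exact permutation in scipy 1.17.1. The length trend was a lowess curve of span 0.3, entered as an offset. Alternatives used DESeq2 1.42.0 and limma 3.58.1, other filters and scalings, and single libraries left out. The scripts were tested on simulated data. Nothing says that a day's libraries are from separate cultures. The p-values thus rest on the variation among these 6 libraries, possibly technical in part.

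Gene positions and lengths come from the Ensembl annotation of BDGP6, with older symbols matched through RefSeq, for all but 142 genes. Lengths are the median over annotated transcripts. Named members were the 6 called lower with the lowest fold changes and, as none was called higher, the 3 not called with the highest. Members listed by role and both copies of each a and b pair were also named. Others were named after their values were seen. The members and lists were chosen with earlier results of these data known.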

Additional observations from a re-analysis of the deposited data

How the results depend on the processing

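Over 18 other settings, the number of ribosomal protein genes called lower was 51 to 68 except with the length trend removed, where it was 14, or 10 with the replicate block as well. It was 51 to 60 with 1 library left out, 58 with the replicate block alone and 68 with total-count scaling, which moved the median of all tested genes by -0.27. The number called higher was 0 in all settings but the length trend ones, where it was 3 and 3. Of the 59 genes called lower, 10 were called in every other setting and 49 lost the call in at least 1, the length trend settings included. RpL27, RpL14, RpL15, RpL19, RpL32 and RpL18 lost it without single libraries, and so did the genes named for this in the report. RpL18 lost it in 14 of 18 settings, among them the DESeq2 Wald test, limma-voom and the replicate block. RpL14, RpL15 and RpL32 also lost it with total counts without CR40469 and CR34335. Same-numbered libraries of day 11 and day 5 had correlations of deviations of 0.0497, 0.194 and -0.0858. The labels do not say whether the numbers pair the samples, and 3 libraries a day cannot settle it. Of the day 11 libraries, only replicate 2 correlated best with its own number.

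Relative to the group, 9 members were lower, but 5 without the low-count filter, 5 with the replicate block and 3 to 9 with 1 library left out. There 9 were higher, but 3 with the length trend removed, and 5 to 10 with 1 library left out. The log2 ratio of small to large subunit counts differed by -0.031, by 0.016 without same-named copies, by -0.135 without RpL41, by -0.071 for medians, and by -0.053 to -0.013 with 1 library left out. The difference in the share of counts was -13.7 percentage points, -10.1 without CR40469 and CR34335, and -14.0 to -13.6 with 1 library left out. With the length trend removed, and then also with the replicate block, the sign turned for 18 members, 9 of them called lower in the report. By name they were RpL35, RpL37A, RpS30, RpS25, RpL27, RpL14, RpL32 and RpL18, called lower, RpL6, RpL8 and RpL7A, not called, and RpS21 (0.049, 0.057), RpLP2 (0.048, 0.028), RpL36 (0.110, 0.105), RpL27A (0.261, 0.202), RpLP0 (0.013, 0.011), RpS3 (0.259, 0.265) and RpL38 (0.445, 0.379). RpL3 turned without day 5 replicate 3. RpS3 was at 0.062 with total counts without CR40469 and CR34335. RpL38 was at 0.104 there, at 0.0047 with the DESeq2 Wald test and at 0.0047 with DESeq2 size factors, at 0.019 with at least 5 CPM, and from -0.23 to 0.32 with 1 library left out, being above 0 without day 11 replicate 1 and without day 5 replicate 2 (0.259). RpL27A ran from -0.45 to 0.031 with 1 library left out, above 0 without day 11 replicate 1. With total-count scaling RpL40 was at -0.186, RpS26 at -0.179 and RpL37a at -0.123, and RpL40 ran from -0.0014 to 0.15 with 1 library left out, below 0 without day 11 replicate 1. The cause was not tested. A count of 3 is 0.332 to 0.459 CPM, the limit for RpS28a and RpL37b, which had no count.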
